A study of Mus musculus with 6 samples.

Results

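The Hox cluster genes encode homeodomain transcription factors that are read out along the head-to-tail axis of the embryo. In the mouse they lie in 4 clusters, Hoxa to Hoxd, and are numbered by paralog group, so that genes with the same number in different clusters descend from one ancestral gene. Genes with low numbers lie at the 3′ end of a cluster and are as a rule active further toward the head, while genes with high numbers lie at the 5′ end and are active toward the tail. In the gut they are expressed mainly in the mesoderm around the endodermal tube, where the highest paralog groups mark the hindgut and cloaca, and *Hoxa* and *Hoxd* genes are known for their roles in the regional form of the gut and its sphincters. Members were taken by name, as probes whose only platform symbol is Hoxa, Hoxb, Hoxc or Hoxd followed by a number from 1 to 13. The rule gave 30 probes for 30 genes, of 13840 genes that the platform names by a probe with a single symbol. RefSeq lists 39 mouse Hox genes, and the other 9 were not analysed here.

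The RNA came from the distal portion of the midgut at E13.5, in 3 *Id2*+/+ and 3 *Id2*-/- samples taken from littermate embryos, with 1 single-color array per sample. *Id2* encodes a helix-loop-helix protein that inhibits transcription factors of the basic helix-loop-helix type, and the mutant mice of the study were kept on an inbred or a mixed background, without word of which one the arrays used. The level of *Id2* itself is not used here, and the genotypes are those of the labels. Whether embryos were pooled for a sample is not stated, and p-values therefore cover only the spread between these samples, which may be technical. A probe is called above background on an array where the signal-to-noise value of the scanner software was at least 3, and detected where this held for the 3 arrays of either genotype, with no bad spot on any of the 6. Levels are log2 of the signal divided by the median of its array, so 0 is the median, and differences are *Id2*-/- minus *Id2*+/+. Levels of different probes are not compared with each other.

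On the whole array 13890 to 16539 probes per array were above background and 12741 were tested. Markers of the labelled tissue were present, with *Cdx2* and *Epcam* of the intestinal epithelium and *Col1a1* and *Foxf2* of the mesenchyme above background on all 6 arrays. Of 9 genes listed as marks of hindgut and cloaca, 7 had a named probe. Above background on no array were 5 of these, including *Evx1*, *Cdx4* and *Hoxa13*. *Hoxa13* is itself one of the Hox genes studied here and so is no separate mark of position. The other 2 were *Isl1*, above background in all samples, and *Wnt5a*, which was so in 2 *Id2*+/+ and 3 *Id2*-/- samples. *Isl1* is also listed as a stomach and foregut gene. The arrays numbered 1 differed from the others in both genotypes. Deviations from the genotype means correlated between same-numbered arrays at 0.84, 0.64 and 0.58 over the tested probes, and over the 15 tested Hox probes at 0.95, 0.92 and 0.67. Unlike-numbered arrays 2 and 3 correlated nearly as well, at 0.64 and 0.55 over the tested probes and 0.845 and 0.605 over the Hox probes, so the values set apart the arrays numbered 1 and do not single out the pairs numbered 2 and 3. Fits with the array number as a block are therefore given as well.

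Toward the 5′ ends of the clusters the Hox genes passed from detected to undetected. Of the 30 genes 15 were detected, 50% against 52.4% of all 14411 probes with a single gene symbol, and 13 were above background on all 6 arrays. The 15 were 4 of 9 genes of Hoxa, 5 of 7 of Hoxb, 5 of 8 of Hoxc and 1 of 6 of Hoxd. By number, 10 of the 11 genes of paralog groups 2 to 5 were detected, 5 of the 10 of groups 6 to 9, and 0 of the 8 of groups 10 to 13. The only gene of group 1 with a probe, *Hoxd1*, was above background on no array.

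In each cluster the detected genes lay toward the 3′ side, with *Hoxa6* as a gap among them. In Hoxd the most 3′ gene with a probe, *Hoxd1*, was itself undetected. In Hoxa they were *Hoxa2*, *Hoxa3*, *Hoxa5* and *Hoxa7*, and in Hoxb they were *Hoxb2*, *Hoxb3*, *Hoxb4*, *Hoxb5* and *Hoxb6*. In Hoxc they reached furthest toward the 5′ side, with *Hoxc4*, *Hoxc5*, *Hoxc6*, *Hoxc8* and *Hoxc9*. The lone detected gene of Hoxd was *Hoxd3*. On the 5′ side of these genes *Hoxa9*, *Hoxa10*, *Hoxa11*, *Hoxa13*, *Hoxb8*, *Hoxb9*, *Hoxc10*, *Hoxc13*, *Hoxd9*, *Hoxd10* and *Hoxd11* were above background on 0 of 6 arrays, and the exceptions were *Hoxd4* and *Hoxc12*. In paralog group 9 only *Hoxc9*, of the 4 genes with a probe, was detected. A probe named for both *Hoxb8* and *Hoxb7*, which the naming rule leaves out, was above background on all 6 arrays, between 1.99 and 3.03, while the probe named for *Hoxb8* alone was on none. A signal below background does not show that a transcript is absent, and the place of each probe within its gene was not used here.

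**Figure D1:**
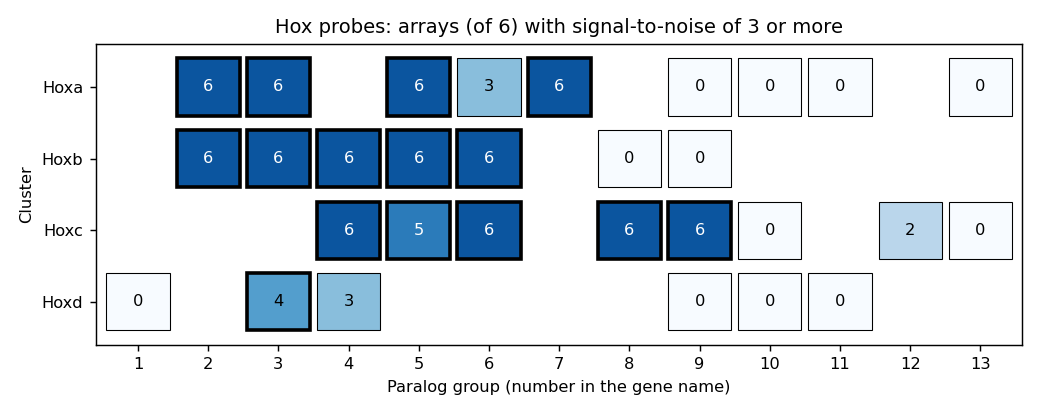
Each box is a Hox gene with a named probe, by cluster (vertical axis) and paralog group (horizontal axis), with the number of arrays out of 6 on which its signal-to-noise value was at least 3 written in it and a thick outline where the gene was detected. Boxes of paralog groups 2 to 5 mostly hold 6, and those of groups 10 to 13 hold 0 except for *Hoxc12*, which holds 2.

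A few genes were above background on some arrays and were not tested. *Hoxa6*, next to *Hoxa7* and *Hoxa5*, was at 1.54, -0.81 and 0.20 on the *Id2*+/+ arrays numbered 1, 2 and 3 and at 0.50, -0.67 and -0.35 on the *Id2*-/- arrays, and was above background on 2 and 1 of them. *Hoxd4* was at -0.08, -1.48 and -1.94 in *Id2*+/+ and at -1.29, 1.84 and -1.95 in *Id2*-/-, and was above background on 1 and 2 arrays. *Hoxc12* was above background on 1 array of each genotype. The values of these 3 genes overlapped between genotypes.

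The 300 bases around the start of 4 Hoxa genes are shown because they lie on either side of the last detected gene of that cluster, from *Hoxa3* and *Hoxa5* to *Hoxa7*, its most 5′ detected member, to *Hoxa9*, the first undetected member after it. They run from 250 bases before to 50 after the RefSeq start, on the minus strand of GRCm38.p6, and the RefSeq start used for *Hoxa3* lies between those of *Hoxa6* and *Hoxa7*. Capitals mark matches to TTTATG on either strand, a core of the motif that Cdx homeodomain proteins bind.
Hoxa3, chr6:52213018-52213317: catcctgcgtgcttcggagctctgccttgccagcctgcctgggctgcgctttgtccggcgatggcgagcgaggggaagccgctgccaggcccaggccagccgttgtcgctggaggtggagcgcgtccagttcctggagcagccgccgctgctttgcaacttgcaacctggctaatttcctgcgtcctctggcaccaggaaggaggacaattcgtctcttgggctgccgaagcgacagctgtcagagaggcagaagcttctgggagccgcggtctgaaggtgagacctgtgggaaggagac
Hoxa5, chr6:52204538-52204837: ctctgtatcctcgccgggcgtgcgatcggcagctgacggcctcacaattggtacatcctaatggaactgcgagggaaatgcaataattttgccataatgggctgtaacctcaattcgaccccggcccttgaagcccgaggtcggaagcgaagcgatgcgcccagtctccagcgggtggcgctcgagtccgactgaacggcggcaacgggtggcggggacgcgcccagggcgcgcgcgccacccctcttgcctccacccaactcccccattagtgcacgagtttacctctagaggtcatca
Hoxa7, chr6:52218524-52218823: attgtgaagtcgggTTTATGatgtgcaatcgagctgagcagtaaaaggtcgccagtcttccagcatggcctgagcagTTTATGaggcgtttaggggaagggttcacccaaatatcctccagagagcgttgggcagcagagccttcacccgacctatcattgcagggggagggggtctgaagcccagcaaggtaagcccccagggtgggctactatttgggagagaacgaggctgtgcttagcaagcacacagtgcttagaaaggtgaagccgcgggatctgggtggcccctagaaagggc
Hoxa9, chr6:52227321-52227620: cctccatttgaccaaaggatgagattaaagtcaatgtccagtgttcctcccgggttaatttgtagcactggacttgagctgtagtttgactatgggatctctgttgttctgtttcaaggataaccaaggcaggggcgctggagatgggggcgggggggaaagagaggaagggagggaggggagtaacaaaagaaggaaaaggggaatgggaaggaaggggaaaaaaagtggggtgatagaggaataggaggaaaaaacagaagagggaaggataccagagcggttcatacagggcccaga
The *Hoxa7* window holds 2 matches and the other 3 windows hold 0. Among all members 20 windows of 18 genes were found, and TTTATG occurred in 2 of 7 windows of detected genes, 3 of 13 of the others and 11.9% of all 32851 windows. The composite letters TGATTNAT, bound by Hox proteins together with Pbx proteins, occurred in 1 of 7 and 1 of 13 windows, against 3.22% of all. The number of CG dinucleotides was 29 for *Hoxa5*, 20 for *Hoxa3*, 9 for *Hoxa7* and 4 for *Hoxa9*. It ranged from 9 to 29 in windows of detected genes and from 4 to 45 in the others, so both sets overlapped, with medians of 14 and 20 against 7 for all windows. A match of letters is not a bound site, and nothing here measured binding.

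Between genotypes no Hox gene differed past the adjusted test. In limma with Benjamini-Hochberg adjustment, 0 of the 15 tested Hox probes were called, as were 0% of all 12741 probes, and with the array number as a block 0 of 15 against 2.18% of all probes (0.118% with the block as a random effect, and 0% with block and quantile normalization). At an unadjusted p under 0.05 stood 1 of the 15, *Hoxa3*, against 1.84% of all probes by limma, and the methods' t-test gave 1 of 15 against 1.9% (0 of 15 after adjustment). With the block it was also 1 of 15, against 6.9%, or 4.44% with the block as a random effect. With block and quantile normalization it was 3 of 15, *Hoxa3*, *Hoxa2* and *Hoxa7*, against 7.41%. The median difference over the 15 was 0.11 against 0.04 over all tested probes. In the pairs of arrays numbered 1, 2 and 3 it was 0.17, 0.12 and 0.06, and over all tested probes it was 0.35, -0.04 and -0.19. For any single gene, 0.1 is the smallest two-sided p that exact permutation of 3 and 3 arrays allows.

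The precision differed widely between the Hox genes. *Hoxb6*, a gene of trunk mesoderm, was at 6.39, 6.54 and 6.57 on the *Id2*+/+ arrays and at 6.50, 6.61 and 6.41 on the *Id2*-/- arrays. The groups overlapped, and the difference of 0.0079 had a 95% confidence interval from -0.51 to 0.53. Without the block the interval lay within 1 log2 unit of 0 for 5 of the 15 probes, and it was widest for *Hoxc5*, from -1.83 to 1.69. With the block it did so for 14, the exception being *Hoxa3*. That fit gives all probes the same standard error of 0.27, so the count of 14 does not measure the precision of each gene. Where an interval reaches past 1 or -1, a 2-fold difference in that direction lies within it.

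*Hoxa3*, which patterns the pharyngeal arches and the organs that come from them, had the largest difference among the tested Hox genes. Its levels were 1.58, 1.71 and 1.42 on the *Id2*+/+ arrays numbered 1, 2 and 3 and 2.57, 1.97 and 2.32 on the *Id2*-/- arrays. Each *Id2*-/- value was above each *Id2*+/+ value, which was so for 1 of 15 Hox probes and 2.73% of all tested probes, and the reverse held for 0 of 15 and 1.29%. The means were 1.57 ± 0.15 and 2.28 ± 0.30 (SD, n = 3), a difference of 0.72 (standard error 0.26) or 1.64-fold, with an interval from 0.12 to 1.32. It did not pass limma (unadjusted p = 0.0253, adjusted p = 1.0) or the fit with the block (adjusted p = 0.231). The pairs differed by 0.99, 0.26 and 0.90, and leaving out any array gave 0.58 to 0.87.

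*Hoxa2*, the most 3′ Hoxa gene measured here and a gene of the hindbrain and second arch, was at 4.62, 5.32 and 5.31 in *Id2*+/+ and at 5.28, 5.64 and 5.40 in *Id2*-/- samples. The *Id2*+/+ array numbered 1 was the lowest and the other values lay close together. The difference was 0.35 (standard error 0.28, adjusted p = 1.0 by limma), with 0.65, 0.31 and 0.09 in the pairs, and 0.12 without that array. *Hoxa5*, which acts in the mesenchyme of lung and gut, was at 6.42, 7.13 and 7.26 against 6.97, 7.24 and 7.18. Its difference of 0.19 (standard error 0.29) came with 0.55, 0.12 and -0.08 in the pairs, and it was -0.06 without the *Id2*+/+ array numbered 1. *Hoxa7*, the most 5′ detected gene of the cluster, went the other way. It was at 3.88, 4.67 and 4.45 in *Id2*+/+ and at 3.80, 4.27 and 4.0 in *Id2*-/-, with pair differences of -0.08, -0.40 and -0.45 and overlapping groups. The difference was -0.31 (standard error 0.29, adjusted p = 1.0 by limma), and it lay between -0.54 without the *Id2*+/+ array numbered 1 and -0.14 without the one numbered 2. Of the 15 Hox probes 6 were higher in all 3 pairs against 11.8% of all probes, and *Hoxa7* was the 1 that was lower in all 3 pairs against 5.64%. Both counts rest on the array numbers, and the values do not single out the pairs numbered 2 and 3.

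The differences of the 5 detected Hoxb genes ran from 0.0079 for *Hoxb6* to 0.24 for *Hoxb3*, with a median of 0.19, and their intervals reached up to 1.19 for *Hoxb2* and 1.01 for *Hoxb3*. *Hoxb3*, which like *Hoxa3* is a gene of the pharyngeal region, was at 2.43, 1.53 and 1.92 in *Id2*+/+ and at 2.60, 1.85 and 2.14 in *Id2*-/-. It was higher by 0.17, 0.32 and 0.22 in the pairs, although the groups overlapped. *Hoxb4* was at 6.01, 6.39 and 6.28 against 6.17, 6.58 and 6.34, and in the pairs differed by 0.16, 0.19 and 0.06. *Hoxb5*, known for its part in vagal neural crest that forms the enteric neurons, was at 5.25, 5.38 and 5.72 against 5.60, 5.70 and 5.62, a difference of 0.19 (standard error 0.24). *Hoxb2* was at 6.77, 5.77 and 5.71 against 6.97, 5.99 and 5.86, with 0.20, 0.22 and 0.16 in the pairs. Of these 5 genes *Hoxb2*, *Hoxb3* and *Hoxb4* were higher in all 3 pairs. With the block their intervals included 0, from -0.35 to 0.73 for *Hoxb2*. The fit with the block gives all probes the same standard error, so these intervals do not measure the spread of each gene's own pairs. For *Hoxb3* and *Hoxb4* being higher in all 3 pairs depended on the numbering of the arrays 2 and 3. *Hoxb3* was at 1.85 on the *Id2*-/- array numbered 2, below 1.92 on the *Id2*+/+ array numbered 3. *Hoxb4* was at 6.34 on the *Id2*-/- array numbered 3, below 6.39 on the *Id2*+/+ array numbered 2. Leaving out 1 array gave 0.02 to 0.47 for *Hoxb3*, 0.03 to 0.23 for *Hoxb4* and 0.09 to 0.33 for *Hoxb5*.

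In the Hoxc cluster the genotype differences were small beside the spread between arrays of one genotype. *Hoxc4* was at 2.98, 1.36 and 1.49 in *Id2*+/+ and at 3.18, 1.42 and 1.56 in *Id2*-/- samples. Same-numbered arrays nearly coincided, with pair differences of 0.20, 0.06 and 0.06, while the arrays numbered 1 lay far above the rest. *Hoxc6* was at 4.08, 2.62 and 2.52 against 4.18, 2.62 and 2.36, and *Hoxc8*, a gene of the thoracic trunk, at 4.67, 3.44 and 3.12 against 4.34, 3.34 and 3.29. *Hoxc5* was at 1.96, -0.15 and 0.84 against 2.30, -0.14 and 0.28 and was below background on the *Id2*+/+ array numbered 2. *Hoxc9*, the gene of the highest paralog group that was detected, was at 2.08, 2.81 and 2.35 against 1.57, 2.51 and 2.64. Its pairs differed by -0.50, -0.30 and 0.29, and the difference of the means was -0.17 (standard error 0.36). *Hoxd3* was at 3.30, 1.43 and 1.84 in *Id2*+/+, above background on all 3 arrays, and at 3.38, 1.70 and 1.19 in *Id2*-/-, above background on 1 array. Despite that change in the number of arrays its difference was -0.10 (standard error 0.68).

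**Figure D2:**
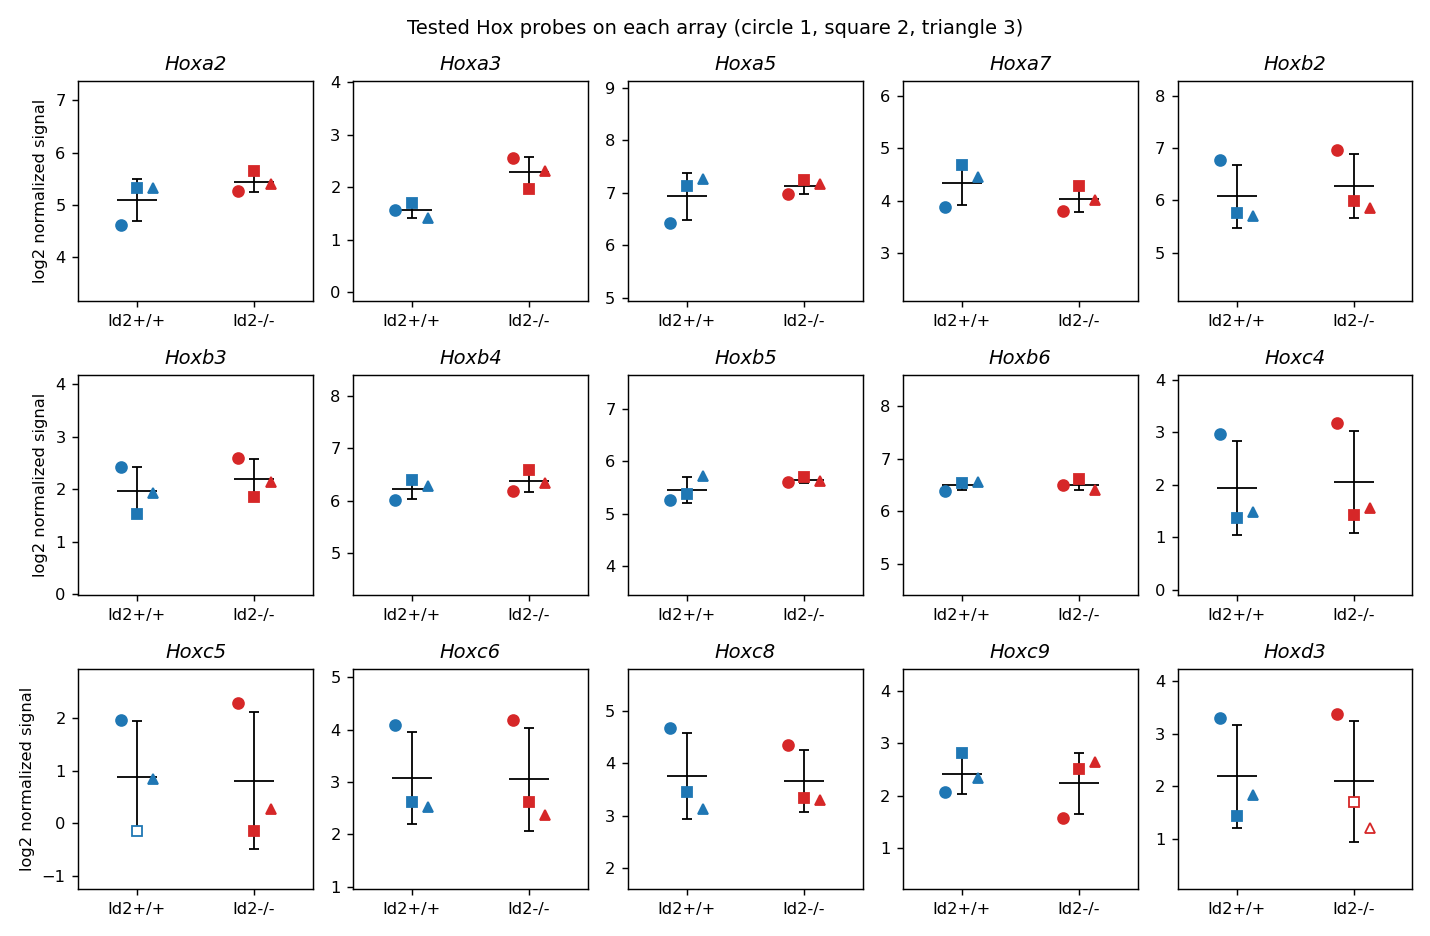
Log2 median-normalized signal (vertical axis, the same span of log2 units in each panel) of the 15 tested Hox probes in *Id2*+/+ (blue) and *Id2*-/- (red) samples, with a circle, square and triangle for the arrays numbered 1, 2 and 3, open symbols below background, a horizontal bar at each mean and whiskers of 1 SD. The groups are apart for *Hoxa3* alone, and the circles of *Hoxc4*, *Hoxc5*, *Hoxc6*, *Hoxc8*, *Hoxd3*, *Hoxb2* and *Hoxb3* stand above the other symbols in both genotypes.

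Set in order of paralog group, the mean differences tended from positive to negative. In groups 2 to 5 the median difference was 0.19 and 8 of 10 were positive, and in groups 6 to 9 it was -0.09 and 1 of 5 was positive, against 60.4% positive among all tested probes. Spearman's rho between difference and paralog number was -0.71 over the 15 probes, which share arrays and lie in common clusters, and the measure was chosen after the values had been seen, so no test is given. It was -0.80 over 4 probes of Hoxa, -0.80 over 5 of Hoxb and -0.90 over 5 of Hoxc. In the pairs numbered 1, 2 and 3 it was -0.63, -0.78 and -0.17, so the order was hardly seen in the pair numbered 3, where 6 of 10 and 2 of 5 were positive. Without the *Id2*-/- array numbered 1 rho was -0.26, without the *Id2*+/+ array numbered 2 it was -0.36, and without *Hoxa3* it was -0.69. None of the single differences on which it rests passed the adjusted test.

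**Figure D3:**
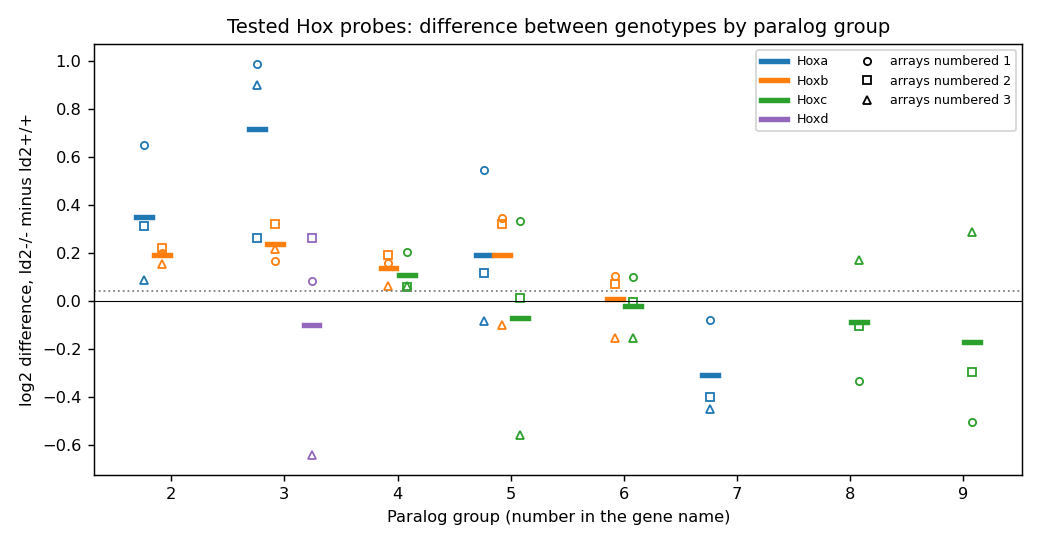
Log2 difference between genotypes (vertical axis) of the tested Hox probes by paralog group (horizontal axis), with a thick bar for the difference of the means, small symbols for the pairs of arrays numbered 1, 2 and 3, a color for each cluster and a dotted line at 0.04, the median of all tested probes. The bars fall from 0.35 for *Hoxa2* and 0.72 for *Hoxa3* to -0.31 for *Hoxa7* and -0.17 for *Hoxc9*, and the bar of *Hoxd3* at -0.10 lies below the others of its group.

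Differences of markers of the tissue layers are given beside those of the Hox genes, and their part in the Hox values was not tested. Of 16 epithelial markers 14 were tested, with a median difference of -0.30, 0 of 14 positive, and 0.45, -0.49 and -0.82 in the pairs, and their summed signal ranged from 615 to 1667 in *Id2*+/+ and from 850 to 975 in *Id2*-/- samples. Among them *Cdx1* was above background on no array. For the 13 tested of 19 mesenchymal markers the median was 0.04, with 0.24, -0.10 and -0.20 in the pairs and sums from 3147 to 7778 and from 3811 to 7003, and *Prrx1* was above background on no array. The 8 tested of 12 markers of neural crest and neurons had a median of 0.02 and sums from 612 to 951 and from 736 to 872. In a piece of tissue fewer cells of a type and less RNA per cell cannot be told apart. Limma called 0 markers of these 3 lists with and without the block. Of the lists for other tissues, 8 of 10 stomach and foregut genes were tested. Limma called 0 of them without the block, where 0% of all probes were called. With the block it called 3, *Foxa2*, *Irx3* and *Irx5*, against 2.18% of all probes. These 3 were above background on 0, 1 and 0 *Id2*+/+ arrays and on all 3 *Id2*-/- arrays. They were thus tested only through *Id2*-/-, the group where they were higher, and no size is given. The other tested ones, *Barx1*, *Isl1*, *Nkx2-5*, *Pitx1* and *Sox2*, differed by -0.09, 0.11, -0.11, 0.16 and 0.58. The 2 tested hindgut and cloaca genes were *Isl1*, already given among the stomach and foregut genes, and *Wnt5a*. *Wnt5a* passed as detected only through *Id2*-/-, since just 2 of the *Id2*+/+ arrays reached the signal-to-noise limit, so no size is given. With these 2 genes the list cannot show a change in hindgut genes, and no median is given for it. The median was 0.43 for 5 endothelial markers, with 1.27, 0.39 and -0.15 in the pairs. It was 0.38 for 4 blood markers, with 0.92, 0.16 and 0.14 in the pairs. Both lists had 0 calls in either fit.

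For *Hoxc4*, *Hoxc5*, *Hoxc6*, *Hoxc8*, *Hoxd3* and *Hoxb2* the larger variation lay between arrays of one genotype. *Hoxa3* went the other way, with a difference of 0.72 between genotypes and SDs of 0.15 in *Id2*+/+ and 0.30 in *Id2*-/-. On the arrays numbered 1, *Hoxc5* was 1.62 log2 units above the mean of the other 2 arrays in *Id2*+/+ and 2.23 in *Id2*-/- samples. The values were 1.55 and 1.69 for *Hoxc4*, 1.51 and 1.69 for *Hoxc6*, 1.39 and 1.03 for *Hoxc8*, 1.67 and 1.94 for *Hoxd3* and 1.03 and 1.05 for *Hoxb2*. These are 6 of the 15 tested probes with at least 1 unit in both genotypes, against 9% of all tested probes, a threshold set after the values were seen. The same distance below was reached by 0 of 15, against 3.34%. Among the 6, *Hoxc5* was below background on the *Id2*+/+ array numbered 2 and *Hoxd3* on the *Id2*-/- arrays numbered 2 and 3. Their distances rest in part on those signals. *Hoxc4*, *Hoxc5*, *Hoxc6* and *Hoxc8* are neighbors in this order among the Hoxc genes with a probe. *Hoxc9*, the next one, was lower on the arrays numbered 1, with -0.50 and -1.0, and so were *Hoxa2*, *Hoxa5* and *Hoxa7*, with -0.68 to -0.77 in *Id2*+/+ and -0.24 to -0.34 in *Id2*-/- samples. The median over all tested probes was -0.28 in *Id2*+/+ and 0.12 in *Id2*-/-. What the arrays numbered 1 share beyond their number is not stated in the labels.

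**Figure D4:**
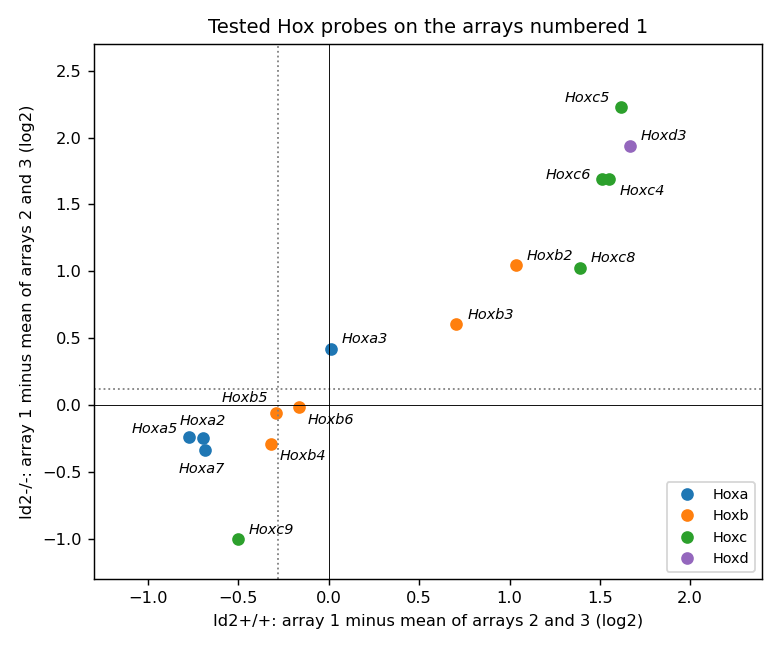
Signal of the array numbered 1 minus the mean of the arrays numbered 2 and 3, in log2 units, in *Id2*+/+ (horizontal axis) and *Id2*-/- (vertical axis) samples for the 15 tested Hox probes, colored by cluster, with dotted lines at the medians of all tested probes. *Hoxc4*, *Hoxc5*, *Hoxc6*, *Hoxc8*, *Hoxd3* and *Hoxb2* lie above 1 on both axes and *Hoxc9* lies below 0 on both.

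Other genes also differed between the arrays numbered 1 and the rest, and their part in the Hox values was not tested. *Aldh1a2*, which encodes an enzyme that makes retinoic acid, an inducer of 3′ Hox genes, was 1.54 and 1.63 higher on the arrays numbered 1. The median of the 7 tested upstream genes was -0.80 and 0.01 there, with -1.83 and -0.76 for *Cyp26b1*, which encodes an enzyme that breaks retinoic acid down, and -1.38 and 0.01 for *Cdx2*. The 3 tested of 5 mesothelial markers did not move as one, with 2.13 and 0.91 for *Upk3b*, 1.0 and -0.23 for *Wt1* and -0.08 and 0.51 for *Krt19*, which is also an epithelial gene, and with sums from 68.8 to 154 in *Id2*+/+ and from 69.5 to 105 in *Id2*-/- samples. The median was -1.05 and 0.01 for the epithelial markers, -0.65 and -0.08 for the mesenchymal ones and -1.41 and -0.21 for the 6 tested of 8 smooth muscle markers, whose sums ran from 722 to 2130 and from 1175 to 1439. Of 12 markers of spinal cord and somite 3 were tested, 5 were above background on no array, and their sums lay between 7.35 and 11.4 in *Id2*+/+ and between 10.1 and 12.4 in *Id2*-/- samples. Limma called 0 of the 3 without the block and 1 as higher with it, *Olig2*, against 2.18% of all probes. *Olig2* was above background on 2 *Id2*+/+ arrays and on all 3 *Id2*-/- arrays, so it was tested only through *Id2*-/- and no size is given.

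Genes that act with or upstream of Hox proteins gave no call without the block. Of 9 genes of the TALE homeodomain group, the cofactors with which Hox proteins bind DNA, 3 were tested, and *Meis1* differed by 0.10, *Meis2* by 0.17 and *Pbx3* by 0.06. Of 20 upstream genes 7 were tested with 0 called by limma with or without the block. Among them *Cdx2*, whose protein regulates central Hox genes and intestinal identity, differed by -0.40 (standard error 0.41), with 0.53, -0.64 and -1.08 in the pairs. *Aldh1a2* differed by 0.50 (standard error 0.60) and was higher by 0.56, 0.41 and 0.53. *Cyp26b1* differed by 0.40. Of 23 Polycomb and Trithorax genes, which hold Hox clusters silent or active, 15 were tested with a median of 0.04 and 0 calls without the block. With the block 1 was called as higher, *Scmh1*. It was above background on 1 *Id2*+/+ array and on all 3 *Id2*-/- arrays, so it was tested only through *Id2*-/- and no size is given. Its pair numbered 1 differed by 0.0078, while the fit with the block gives all probes the same standard error. With the block and quantile normalization 0 of 12741 probes were called, so that this call and those of *Foxa2*, *Irx3*, *Irx5* and *Olig2* were lost.

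The genes that flank the clusters are not Hox genes and serve as a local comparison. Of 22 such genes 12 were tested, with a median difference of 0.09 and 0 calls by limma with or without the block. Beside Hoxa, *Skap2* differed by 0.12 and *Hibadh* by 0.03. *Mtx2* and *Lnpk* beside Hoxd differed by 0.03 and 0.04, and *Calcoco1* and *Cbx5* beside Hoxc by 0.22 and 0.11. The *Evx1* and *Evx2* genes, which lie at the 5′ ends of Hoxa and Hoxd next to the undetected Hox genes, were above background on no array. On the arrays numbered 1 the genes beside Hoxc lay on both sides of the 4 Hoxc genes, with 3.23 and 3.40 above the mean of the other arrays for *Copz1*, 1.37 and 1.63 for *Atp5g2*, 0.57 and 0.71 for *Cbx5* and -0.23 and -0.01 for *Calcoco1*. *Nfe2l1* beside Hoxb was at 2.18 and 2.84, and was above background on only 2 of the 3 *Id2*-/- arrays.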

How the data were processed

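RNA was amplified for 1 round and labeled, and hybridized to Applied Biosystems mouse genome survey arrays. The deposited files give per probe a signal intensity, a signal-to-noise score and a flag score, as the authors' scanner software made them, and a normalized signal, which the authors obtained by dividing the intensity by the median of the array. No source used here says whether background was subtracted. The methods leave out flags under 5000, and here, in the opposite sense, flags of 5000 or more were taken as bad spots. Values on the log2 scale were fitted with limma 3.58.1 in R 4.3.3 over all 12741 tested probes, with Benjamini-Hochberg adjustment at 0.05, and the script was tested on simulated data. With 3 arrays per genotype their number limits the precision. Gene names come from the platform annotation and RefSeq (GRCm38.p6). Of the 30 Hox genes 18 have a promoter window in RefSeq. Values on every array were to be given for the Hox probes with the smallest p, the largest differences or a change in detection, and were extended to all tested ones. Members and lists were chosen with earlier results of these data known. Same-numbered arrays deviated together (0.838, 0.644 and 0.579), every pair over 0.1, and were treated as pairs, a link that no label explains. Unlike-numbered arrays 2 and 3 correlated at 0.638 and 0.549. With the block the prior degrees of freedom were infinite, so all probes shared a standard error of 0.27. Alternatives were the block as fixed or random effect, quantile normalization, other filters, an offset of 0.5, flagged spots kept, a trended robust prior, the series table, the methods' t-test and leaving out each array. Figures were drawn with matplotlib 3.10.9.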

Additional observations from a re-analysis of the deposited data

How the results depend on the processing

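The count of called Hox probes was 0 in every fit run, including the replicate block as a fixed or random effect, the replicate block with quantile normalization and the methods' t-test, and the block changed no Hox call. Over all tested probes 2.18% were called with the block as a fixed effect and 0.118% with it as a random effect. Every other fit called 0 of all probes, so there the Hox count could only be 0. Detection held at 13 to 18 genes, against 15, under each limit and array rule tried. The median difference of 0.11 over the Hox probes was 0.0488 with quantile normalization, with or without the replicate block, and lay between 0.0042 without the *Id2*+/+ array numbered 3 and 0.38 without the *Id2*+/+ array numbered 1. *Hoxb6* changed sign to -0.0211 with quantile normalization, with or without the block. Leaving out 1 array keeps its same-numbered partner, and the sign then changed for genes with small differences, in the ranges -0.0644 to 0.36 (*Hoxa5*), -0.16 to 0.54 (*Hoxb2*), -0.0476 to 0.0553 (*Hoxb6*), -0.45 to 0.62 (*Hoxc4*), -0.81 to 0.47 (*Hoxc5*), -0.58 to 0.48 (*Hoxc6*), -0.43 to 0.38 (*Hoxc8*), -0.37 to 0.17 (*Hoxc9*) and -0.75 to 0.46 (*Hoxd3*). The cause of these changes was not tested.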
